A study of Mus musculus with 8 samples.

Results

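The nuclear genes for the subunits of respiratory complexes II to V and for cytochrome c were followed in mouse tuft cells sorted from the small intestine. They were chosen by gene symbol alone, with a symbol pattern over the Sdh, Uqcr, Cyc1, Cycs, Cox4 to Cox8 and Atp5 series. This gave 47 of 53655 symbols, of which 4 belong to complex II, 9 to complex III, 17 to complex IV and 16 to complex V, and 1 is cytochrome c. Complexes were assigned by symbol, so Atp5s, which RefSeq names Dmac2l, was counted with complex V. The pattern leaves out some symbols of these series, such as Atp5mpl and Cox7a2l. No expression value entered the pattern, but the set was chosen with earlier results of these data known.

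Complex II passes electrons from succinate to ubiquinone, complex III passes them on to cytochrome c, and complex IV hands them to oxygen. Complexes III and IV pump protons as they work, and complex V, the ATP synthase, uses the returning protons to make ATP. All of complex II and most subunits of the others are encoded in the nucleus, while a few subunits of complexes III to V come from mitochondrial DNA. Several complex IV subunits and the ATP synthase c subunit are encoded by more than one nuclear gene, and some of these copies are known best from heart, muscle, lung or testis.

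Tuft cells, a sparse chemosensory cell type of the gut lining, release IL-25, and some of them express choline acetyltransferase (Chat), which makes acetylcholine. All 8 libraries came from naïve mice of genotype Il25-RFP/+;Chat-GFP(Tg+), so both groups carried the same red Il25 reporter and the same green Chat transgene. Cells were gated as CD45-negative, EPCAM-positive and RFP-positive and then divided by GFP into Chat-neg and Chat-pos cells, 4 libraries each. The sources used here do not give age, sex or the number of animals behind each library, and GFP reports the transgene and not the Chat protein.

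Counts in named genes ran from 87642 to 1176880 in Chat-neg and from 1757401 to 2541955 in Chat-pos, so the groups did not overlap in depth. Chat mRNA was 117 ± 22.5 CPM (counts per 1000000 counts) in Chat-neg and 330 ± 34.1 CPM in Chat-pos (SD, n = 4 each). Summed tuft cell markers were 12123 to 21995 CPM in Chat-neg and 29741 to 30818 CPM in Chat-pos, and all 14 markers were detected. By the test described below, 8 of the 14 were called higher, where 3.62% of all genes were. In 10 of them all Chat-pos libraries lay above all Chat-neg libraries, against 8.58% of all genes. Paneth cell markers summed to 61320 and 33282 CPM in Chat-pos replicates 2 and 3 and to between 494 and 3568 CPM in the other 6 libraries. Chat-neg replicate 1 was the shallowest library, and counts on olfactory and vomeronasal receptor genes, used as a measure of background, were at 4119 CPM there, 386 to 784 CPM in the other 3 Chat-neg libraries and 149.9 to 288 CPM in Chat-pos. This background and the share of counts in rows without a gene name (67.8% to 88.4% in Chat-neg and 58.6% to 64.6% in Chat-pos) were both higher in every Chat-neg library than in any Chat-pos library. Enterocyte markers, at 21709 to 45881 CPM in Chat-neg and 33273 to 54490 CPM in Chat-pos, overlapped between the groups. Goblet cell markers summed to 512 to 5526 CPM in Chat-neg and 306 to 1571 CPM in Chat-pos, with 1 of 7 tested markers called lower and 3 without overlap. Over all genes, 2.87% were called lower and 5.42% had every Chat-pos library below every Chat-neg library. Lymphocyte markers summed to 168 to 355 CPM in Chat-neg and 4.98 to 282 CPM in Chat-pos, with 0 of 5 called. Proliferation markers summed to 98.4 to 497 CPM in Chat-neg and 79.0 to 155 CPM in Chat-pos, with 0 of 7 called and 4 lower at an unadjusted p under 0.05, against 9.88% of all genes. Enteroendocrine markers summed to 593 to 1645 CPM in Chat-neg and 1213 to 1919 CPM in Chat-pos, and the 1 tested was called higher without overlap. Stem and progenitor markers summed to 69.9 to 830 CPM in Chat-neg and 87.5 to 1043 CPM in Chat-pos, with 0 of 5 called. All markers of these lists were detected, and Retnlb, a goblet cell marker, was at 0 in all Chat-neg libraries. The part of these marker sets, of the background and of depth in the results that follow was not tested.

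Of the 47 genes, 44 had counts and 42 passed the filter on low counts. Compared with Chat-neg, 9 of the 42 were lower in Chat-pos and 0 were higher (edgeR's quasi-likelihood test, Benjamini-Hochberg adjusted p under 0.05 over all genes tested). Over all 8919 genes tested, 2.87% were called lower and 3.62% higher. The log2 difference, Chat-pos minus Chat-neg, was negative for 39 of the 42, with a median of -0.49, while it was negative for 51.5% of all genes, with a median of -0.02. At an unadjusted p under 0.05, 20 of the 42 were lower and 0 higher, where all genes gave 9.88% and 10.9%. DESeq2 called 15 lower and limma-voom with quality weights called 16, and both called 0 higher. DESeq2 called 4.24% lower of the 5631 genes to which it gave an adjusted p, and limma-voom 4.51% of all 8919.

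The 9 genes that fell were Atp5k, Atp5g1, Atp5g2, Atp5a1 and Atp5j2 of complex V, Cox7a1, Cox7c and Cox6c of complex IV, and Cyc1 of complex III. None of the 4 complex II genes passed, and neither did cytochrome c. In 6 of the 42 genes all Chat-pos libraries lay below all Chat-neg libraries, where 5.42% of all genes did so, and in 0 of the 42 all Chat-pos libraries lay above, against 8.58% of all genes. In bulk libraries, fewer cells of a type and less RNA per cell cannot be told apart.

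The number of calls rested on single libraries. It was 18 without Chat-neg replicate 1, and between 2 and 7 when any one of the other 7 libraries was left out. Over all genes tested, 3.18% were called lower without Chat-neg replicate 1 and 1.12% to 2.63% in the other 7 fits. The main fit gave 2.87%. With Chat-pos replicates 2 and 3, the Paneth-rich libraries, both left out, 0 of 41 tested genes passed in either direction, 8 were lower and 0 higher at an unadjusted p under 0.05, 31 of the 41 differences were negative, and their median was -0.22. Over all 9030 genes of that fit, 86 (0.952%) were called lower and 240 higher, so the share called lower fell over all genes too. With Chat-neg replicate 1 left out as well, 3 genes passed (Atp5k, Cox7c and Atp5a1), 39 of 42 differences were negative, and the median was -0.38. Atp5k and Cox7c passed in all 8 fits that left out 1 library. Atp5g1 passed in 7 and Cox7a1 in 5, and the other 5 genes passed in 1 or 2 of the 8.

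**Figure D1:**
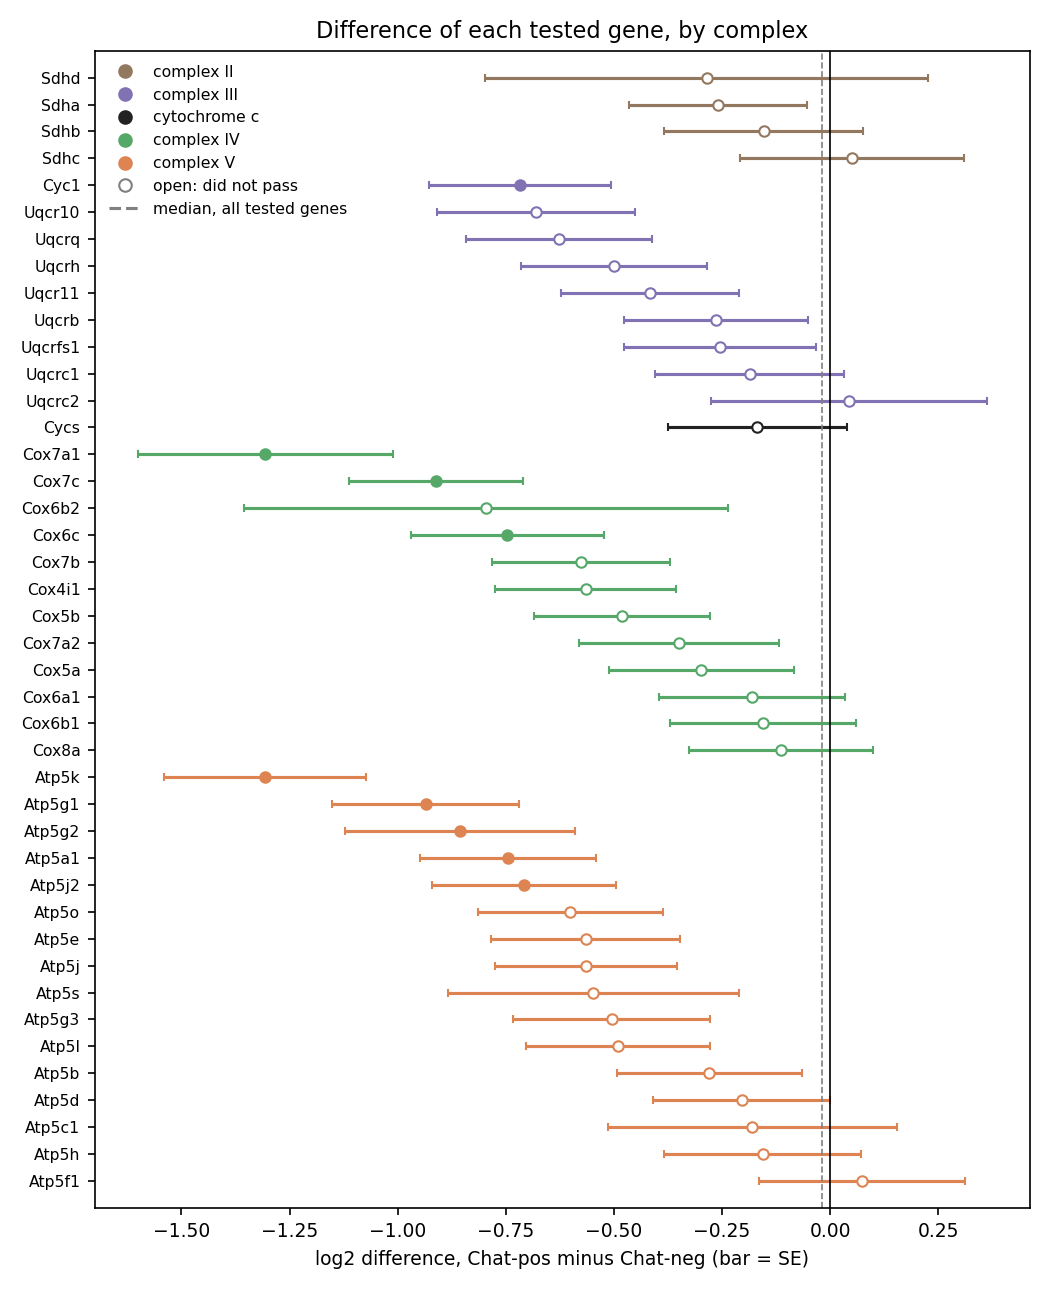
Log2 difference of each of the 42 tested genes (x axis, Chat-pos minus Chat-neg, bar = SE from edgeR), ordered within each complex; filled points passed the adjusted threshold, open points did not, and the dashed line is the median of all tested genes. All but 3 points lie below 0, the filled ones in complexes III, IV and V.

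The levels were then summed within each complex. Complex II summed to 721, 921, 1137 and 963 CPM in Chat-neg replicates 1 to 4 and to 562, 659, 918 and 1209 CPM in Chat-pos replicates 1 to 4. The groups overlapped, with the highest single value in a Chat-pos library. Complex III summed to 4584, 6976, 7463 and 7719 CPM in Chat-neg and to 5095, 4456, 4158 and 5567 CPM in Chat-pos. Here 3 of 4 Chat-neg libraries were above every Chat-pos library, and Chat-neg replicate 1 was among the low ones. The mean of complex III was 6686 ± 1435 CPM in Chat-neg and 4819 ± 634 CPM in Chat-pos (SD, n = 4).

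Complex IV followed the same layout, with 9959, 14012, 14934 and 15596 CPM in Chat-neg and 11382, 9014, 8602 and 12030 CPM in Chat-pos. Its group means were 13625 ± 2529 and 10257 ± 1702 CPM (SD, n = 4). Complex V stood at 9447, 13036, 14571 and 14303 CPM in Chat-neg and at 9356, 7705, 8058 and 10528 CPM in Chat-pos. Only Chat-pos replicate 4 exceeded Chat-neg replicate 1, and the means were 12839 ± 2359 and 8912 ± 1291 CPM (SD, n = 4). These sums carry no test. In each of complexes III, IV and V the 2 lowest sums of the Chat-pos group were in replicates 2 and 3, the Paneth-rich libraries. Without them the log2 ratio of group means moved from -0.47 to -0.22 for complex III, from -0.41 to -0.11 for complex IV and from -0.53 to -0.26 for complex V. For complex II it went from -0.16 to 0.026.

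**Figure D2:**
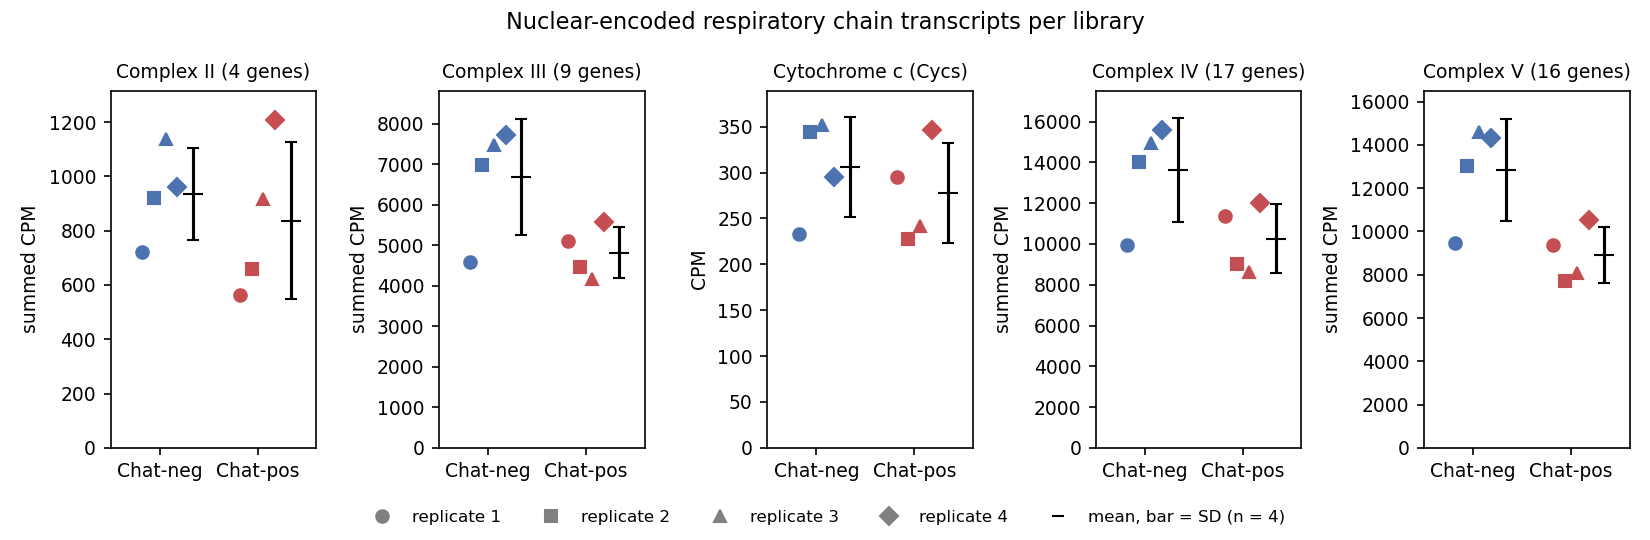
Summed CPM of the nuclear genes of each complex and of cytochrome c (y axes, each starting at 0) in every library of both groups; marker shapes give the replicate number and black bars the mean and SD of 4 libraries. In complexes III, IV and V, Chat-neg replicates 2 to 4 lie above all Chat-pos libraries and Chat-neg replicate 1 lies among them, while complex II and cytochrome c overlap throughout.

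Among the complex II genes, the succinate-oxidizing flavoprotein Sdha was at 151, 260, 209 and 279 CPM in Chat-neg and 200, 163, 195 and 219 CPM in Chat-pos. Its log2 difference was -0.26 ± 0.21 (SE; edgeR, Benjamini-Hochberg adjusted p = 0.523). The iron-sulfur subunit Sdhb was at 337, 406, 547 and 409 CPM in Chat-neg and 251, 312, 444 and 541 CPM in Chat-pos, a difference of -0.15 ± 0.23 (edgeR, Benjamini-Hochberg adjusted p = 0.766). Both ranges overlapped almost entirely. The membrane anchor Sdhc stood at 81.4, 76.4, 85.5 and 72.2 CPM in Chat-neg and at 39.2, 78.8, 99.7 and 106 CPM in Chat-pos, a difference of 0.05 ± 0.26 (edgeR, Benjamini-Hochberg adjusted p = 0.945). The other anchor, Sdhd, was the most uneven of the 4 genes. It ran from 72.2 CPM in Chat-pos replicate 1 to 342 CPM in Chat-pos replicate 4, and its difference of -0.29 had an SE of 0.51. Counts of Sdhd per Sdha count were 1.00, 0.686, 1.41 and 0.724 in Chat-neg against 0.360, 0.650, 0.922 and 1.57 in Chat-pos, so the 2 extremes were both in the Chat-pos group.

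In complex III, Cyc1, the heme-bearing cytochrome c1 that hands electrons to cytochrome c, was the gene that passed. It was at 186, 240, 256 and 260 CPM in Chat-neg and 108, 166, 121 and 189 CPM in Chat-pos. The groups touched, since Chat-pos replicate 4 was above Chat-neg replicate 1. Cyc1 fell from 235 ± 33.9 to 146 ± 37.9 CPM (SD, n = 4), a log2 difference of -0.72 ± 0.21 (edgeR, Benjamini-Hochberg adjusted p = 0.0358). The Rieske iron-sulfur protein Uqcrfs1 (-0.26 ± 0.22) and the core proteins Uqcrc1 (-0.19 ± 0.22) and Uqcrc2 (0.04 ± 0.32) did not pass. Uqcrc2 was at 58.2, 77.7, 130 and 103 CPM in Chat-neg and 55.4, 67.6, 145 and 139 CPM in Chat-pos, with both groups spread from low to high.

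The small subunits of complex III carry no redox group. Uqcrq was at 977, 1502, 1483 and 1728 CPM in Chat-neg and 1002, 885, 750 and 1068 CPM in Chat-pos. Only Chat-neg replicate 1 lay within the Chat-pos range, and the difference of -0.63 ± 0.21 missed the threshold (edgeR, Benjamini-Hochberg adjusted p = 0.0764). Uqcr10, at -0.68 ± 0.23, missed it by a similar distance (edgeR, Benjamini-Hochberg adjusted p = 0.0711). Uqcr11 was at 1163, 1589, 1715 and 1781 CPM in Chat-neg and 1243, 1197, 1007 and 1252 CPM in Chat-pos, a difference of -0.42 ± 0.21 (edgeR, Benjamini-Hochberg adjusted p = 0.245). Uqcrh (-0.50 ± 0.21) and Uqcrb (-0.26 ± 0.21) did not pass either. By sums, the 5 small subunits went from 5884 ± 1276 to 4151 ± 588 CPM, and the 4 core and redox subunits from 802 ± 173 to 667 ± 176 CPM (SD, n = 4).

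Cytochrome c, encoded by Cycs, shuttles electrons from complex III to complex IV. Its level was 233, 344, 351 and 295 CPM in Chat-neg and 295, 228, 241 and 347 CPM in Chat-pos. The ranges coincided, and the difference was -0.17 ± 0.21 (edgeR, Benjamini-Hochberg adjusted p = 0.712). Its partner on the complex III side, Cyc1, had a difference of -0.72, and the difference between these 2 genes was not tested.

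Complex IV had 12 tested genes, all with a negative difference, from -1.31 to -0.11. Cox7a1, the form of subunit VIIa best known from heart and skeletal muscle, was at 163, 190, 242 and 122 CPM in Chat-neg and 60.3, 52.4, 53.9 and 127 CPM in Chat-pos. In Chat-pos replicate 4 it was above Chat-neg replicate 4, and in the other 3 Chat-pos libraries below every Chat-neg library. Cox7a1 fell from 179 ± 50.2 to 73.5 ± 36.1 CPM (SD, n = 4), a log2 difference of -1.31 ± 0.30 (edgeR, Benjamini-Hochberg adjusted p = 0.014). Its call was lost without any one of Chat-neg replicates 1, 2 and 3, and it is the gene with the largest complex IV difference. Cox7a2, the widely expressed form of the same subunit, was at 675, 1275, 1404 and 1526 CPM in Chat-neg and 1120, 840, 761 and 1144 CPM in Chat-pos, a difference of -0.35 ± 0.23 that did not pass (edgeR, Benjamini-Hochberg adjusted p = 0.424). Cox7a1 counts per Cox7a2 count were 0.241, 0.149, 0.172 and 0.0799 in Chat-neg against 0.0539, 0.0624, 0.0708 and 0.111 in Chat-pos, and overlapped through Chat-neg replicate 4 and Chat-pos replicate 4.

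Cox7c, a small membrane-spanning subunit, was at 663, 648, 669 and 703 CPM in Chat-neg and 416, 307, 301.5 and 402 CPM in Chat-pos. No library of one group reached the other, and Chat-neg replicate 1 was level with its group. Cox7c fell from 671 ± 23.0 to 357 ± 60.8 CPM (SD, n = 4), a log2 difference of -0.91 ± 0.20 (edgeR, Benjamini-Hochberg adjusted p = 0.00536). Without the Paneth-rich libraries its difference was -0.61 and missed the threshold (edgeR, Benjamini-Hochberg adjusted p = 0.222). In that fit both remaining Chat-pos libraries were still below all 4 Chat-neg libraries.

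Cox6c, another small membrane subunit, was at 1733, 2567, 2479 and 2784 CPM in Chat-neg and 1914, 1175, 1061 and 1568 CPM in Chat-pos. Chat-neg replicate 1 and Chat-pos replicate 1 were in reversed order, and the other libraries were separated. It fell by 0.75 ± 0.22 on the log2 scale (edgeR, Benjamini-Hochberg adjusted p = 0.0402). Cox6c shares stretches of at least 1 read length with its copy Cox6c2, and reads of the 2 genes were not separated here. Cox6b1, a subunit on the intermembrane face, was at 1512, 2386, 2711 and 2595 CPM in Chat-neg and 2353, 1923, 1791 and 2226 CPM in Chat-pos, a difference of -0.16 ± 0.21 (edgeR, Benjamini-Hochberg adjusted p = 0.742). Within a library, counts of Cox6c per Cox6b1 count were 1.15, 1.08, 0.914 and 1.07 in Chat-neg against 0.814, 0.611, 0.592 and 0.704 in Chat-pos. Here the groups did not overlap, but Cox6c was taken for its fall, so this ratio is no separate support for it.

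The remaining tested complex IV genes did not pass. Cox4i1, the common form of the largest nuclear-encoded subunit, was at 1443, 2019, 1972 and 2285 CPM in Chat-neg and 1314, 1186, 1141 and 1591 CPM in Chat-pos, with a difference of -0.57 ± 0.21 (edgeR, Benjamini-Hochberg adjusted p = 0.106). Chat-pos replicate 4 alone was above Chat-neg replicate 1. Cox7b differed by -0.58 ± 0.21 and Cox5b by -0.48 ± 0.20, while Cox5a differed by -0.30 ± 0.21. Cox6a1 (-0.18 ± 0.22) and Cox8a (-0.11 ± 0.21) were nearest to 0.

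Of the gene copies known from other tissues, few were seen. Cox4i2, known from lung, Cox8b, known from heart and muscle, and Cox8c, known from testis, had 0 counts in all 8 libraries. A count of 0 allows up to 3 counts per library, which is 1.26 to 4.81 CPM in 7 libraries and 34.9 CPM in Chat-neg replicate 1, for counting error only. Cox6a2, a muscle form, had 2 counts in Chat-pos replicate 4 and Cox7b2, a testis form, 1 count each in Chat-neg replicates 2 and 4, so neither was tested. Cox6b2, known from testis, had 0 counts in Chat-neg replicate 1 and otherwise 8.92, 9.50 and 16.1 CPM in Chat-neg, against 4.98, 5.82, 2.84 and 10.1 CPM in Chat-pos, and did not pass (-0.80 ± 0.56). Cox7a1 was the copy of this kind that was measured well above the floor in every library.

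**Figure D3:**
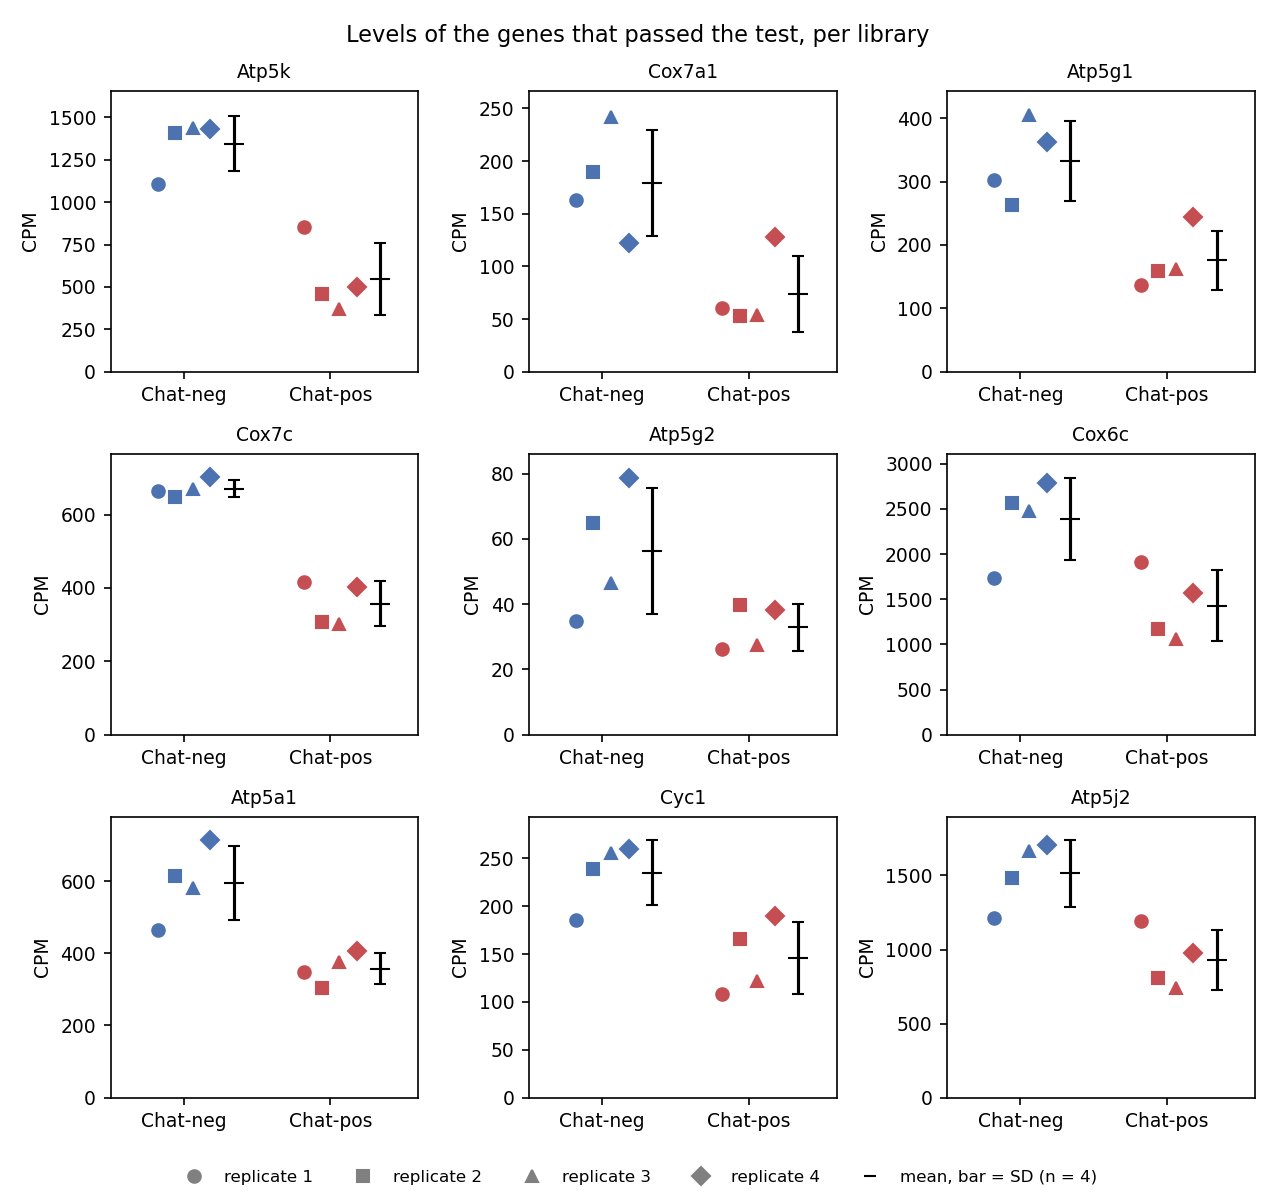
CPM of the 9 genes that passed the test (y axes, each starting at 0) in every library; marker shapes give the replicate number and black bars the mean and SD of 4 libraries. Atp5k, Atp5g1, Cox7c, Atp5a1 and Atp5j2 do not overlap between groups, and the other 4 overlap through 1 or 2 libraries.

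Complex V held 5 of the 9 genes that fell, and 5 of the 6 genes whose groups did not overlap. Its 16 tested genes had a median difference of -0.56, from -1.31 to 0.07. Atp5k, which encodes the small membrane subunit e that helps ATP synthases pair up, fell most of all 47 genes together with Cox7a1. It lies on chr5:108433244-108434448 on the minus strand (GRCm38, GENCODE) and was at 1105, 1407, 1440 and 1431 CPM in Chat-neg and 853, 461, 371 and 499 CPM in Chat-pos. Every Chat-pos library was below every Chat-neg library, with Chat-pos replicate 1 nearest to the gap. Atp5k fell from 1346 ± 161 to 546 ± 212 CPM (SD, n = 4), a log2 difference of -1.31 ± 0.23 (edgeR, Benjamini-Hochberg adjusted p = 0.000786). Over the 8 fits without 1 library the difference ran from -1.60 to -1.13, and without both Paneth-rich libraries it was -0.89 and missed the threshold (edgeR, Benjamini-Hochberg adjusted p = 0.0785).

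Atp5k was also compared within each library with Atp5b and Cox6b1, which did not pass. Its counts per count of Atp5b, the catalytic beta subunit, were 1.56, 1.16, 1.15 and 1.19 in Chat-neg against 1.14, 0.519, 0.380 and 0.488 in Chat-pos. Chat-pos replicate 1 was just below the lowest Chat-neg library, and the other 3 were far below. Per count of Cox6b1 the ratio was 0.731, 0.589, 0.531 and 0.552 in Chat-neg against 0.363, 0.240, 0.207 and 0.224 in Chat-pos, again without overlap. Atp5k was taken for its large fall, so these ratios are no separate support for it.

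The other small membrane subunits sit beside Atp5k in the ATP synthase. Atp5j2, subunit f, was at 1210, 1482, 1665 and 1702 CPM in Chat-neg and 1196, 809, 741 and 975 CPM in Chat-pos, with Chat-neg replicate 1 and Chat-pos replicate 1 close to each other. It fell by 0.71 ± 0.21 on the log2 scale (edgeR, Benjamini-Hochberg adjusted p = 0.0406). Atp5l, subunit g, differed by -0.49 ± 0.21 and did not pass. Atp5l shares read-length sequence with 10 other annotated genes, whose counts were 4.72% of its own in Chat-neg and 3.34% in Chat-pos. Summed, the 3 genes gave 2513, 3130, 3388 and 3464 CPM in Chat-neg and 2277, 1422, 1266 and 1705 CPM in Chat-pos, which did not overlap.

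The c subunit forms the rotating ring in the membrane and is made from 3 genes whose mature proteins are the same. Atp5g1 was at 302, 262, 405 and 363 CPM in Chat-neg and 136, 159, 163 and 244 CPM in Chat-pos, and the groups did not overlap. It fell by 0.93 ± 0.22 on the log2 scale (edgeR, Benjamini-Hochberg adjusted p = 0.00768). This value is uncertain, because Atp5g1 shares read-length sequence with 16 other annotated genes, whose counts were 69.6% of its own in Chat-neg and 140.1% in Chat-pos. Atp5g2 was at 34.9, 65.0, 46.6 and 78.6 CPM in Chat-neg and 26.1, 39.9, 27.4 and 38.3 CPM in Chat-pos, with Chat-neg replicate 1, which holds 3 counts of the gene, inside the Chat-pos range. Atp5g2 fell by 0.86 ± 0.27 on the log2 scale (edgeR, Benjamini-Hochberg adjusted p = 0.048), and of the fits without 1 library it passed in 1.

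Atp5g3, the third c subunit gene, was at 1035, 1443, 1583 and 1367 CPM in Chat-neg and 756, 719, 947 and 1419 CPM in Chat-pos. Chat-pos replicate 4 was at the level of the Chat-neg group, and the difference of -0.51 ± 0.23 did not pass (edgeR, Benjamini-Hochberg adjusted p = 0.197). Counts of Atp5g1 per Atp5g3 count were 0.292, 0.182, 0.256 and 0.265 in Chat-neg against 0.1801, 0.222, 0.172 and 0.172 in Chat-pos, so the balance between these copies overlapped between the groups. All 3 genes together gave 1373, 1771, 2035 and 1808 CPM in Chat-neg and 919, 918, 1136 and 1701 CPM in Chat-pos.

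Of the catalytic head, Atp5a1, the alpha subunit, was at 465, 614, 581 and 714 CPM in Chat-neg and 347, 302, 376 and 405 CPM in Chat-pos, with no overlap. It fell by 0.74 ± 0.20 on the log2 scale (edgeR, Benjamini-Hochberg adjusted p = 0.0234). Its partner Atp5b, with which it builds the catalytic hexamer, was at 710, 1208, 1254 and 1205 CPM in Chat-neg and 747, 888, 977 and 1023 CPM in Chat-pos. There Chat-neg replicate 1 was the lowest of all 8 libraries, and the difference was -0.28 ± 0.21 (edgeR, Benjamini-Hochberg adjusted p = 0.508). The central stalk genes Atp5c1 (-0.18 ± 0.33) and Atp5d (-0.20 ± 0.20) did not pass. Atp5e, the smallest stalk subunit, was at 1035, 1436, 1695 and 1667 CPM in Chat-neg and 1317, 919, 795 and 932 CPM in Chat-pos, a difference of -0.57 ± 0.22 (edgeR, Benjamini-Hochberg adjusted p = 0.124).

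The peripheral stalk holds the head still against the turning ring. Atp5j, its subunit F6, was at 1361, 1665, 1885 and 1941 CPM in Chat-neg and 1359, 954, 995 and 1341 CPM in Chat-pos. All Chat-pos libraries were below all Chat-neg libraries, by a narrow margin at Chat-neg replicate 1, but the difference of -0.56 ± 0.21 did not pass (edgeR, Benjamini-Hochberg adjusted p = 0.108). Atp5o, the stalk subunit OSCP, differed by -0.60 ± 0.21 and Atp5h by -0.16 ± 0.23. Atp5f1, the stalk subunit b, was at 244, 412, 524 and 499 CPM in Chat-neg and 309, 391, 473 and 637 CPM in Chat-pos, which overlapped throughout, and had the highest difference of all 42 genes, 0.07 ± 0.24 (edgeR, Benjamini-Hochberg adjusted p = 0.909). Atp5s, coupling factor B, differed by -0.55 ± 0.34 and did not pass.

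**Figure D4:**
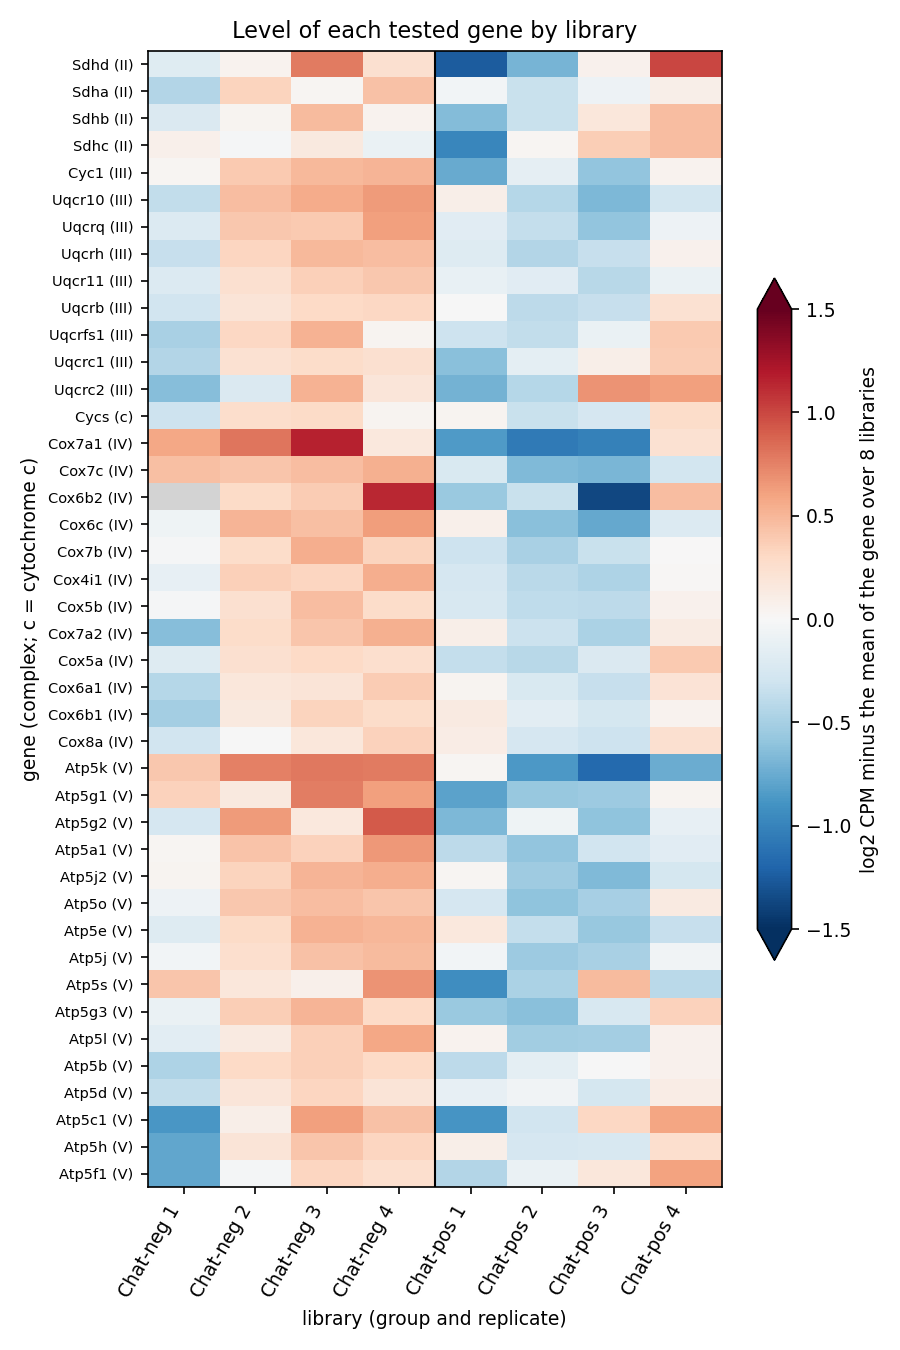
Level of each of the 42 tested genes (rows, by complex) in each library (columns), as log2 CPM minus the gene's own mean over the 8 libraries; red is above the gene's mean, blue below, and grey marks a library with 0 counts. Chat-neg replicates 2 to 4 are mostly red and Chat-pos replicates 2 and 3 mostly blue in complexes III to V, while Chat-neg replicate 1 and Chat-pos replicates 1 and 4 are mixed.

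The genes were also ordered by coding length, with bins chosen after the values were seen. Of 13 genes with a coding length of up to 300 bases, all differences were negative, 4 passed, and the median was -0.58, where 2.87% of all tested genes were called lower. Among the 17 genes of over 300 and up to 600 bases, 3 passed and the median was -0.48, and among the 12 longer genes 2 passed and the median was -0.26. Across the 42 genes, which share their 8 libraries, the log2 difference correlated with log2 coding length with Pearson's r = 0.351 and Spearman's rho = 0.337, given as a description. Over 8880 genes the correlation with log2 exon length was -0.090, and among these 42 genes it was 0.218. Counts of the short genes per count of the long ones were 2.54, 2.46, 2.49 and 2.54 in Chat-neg against 3.13, 2.31, 1.85 and 1.96 in Chat-pos, so Chat-pos replicate 1 was above, and the other 3 Chat-pos libraries below, every Chat-neg library. Among all tested genes, those with an exon length of up to 1000 bases were called lower in 10.3% of 319 cases, with a median difference of -0.17, and those over 2000 bases in 2.23% of 7531, with a median of -0.02. With a smooth trend on exon length removed per library, 19 of the 42 genes passed, all lower, where 3.20% of all genes were called lower.

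Genes for proteins of the cytosolic ribosome summed to 18184, 26609, 24812 and 36238 CPM in Chat-neg and to 15764, 15467, 13241 and 14582 CPM in Chat-pos. This sum was lower in every Chat-pos library than in any Chat-neg library, unlike the sum over all 47 respiratory genes, which overlapped between the groups. Its part in the respiratory result was not tested.

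Upstream sequences were compared because most of these genes had a difference of the same sign and because promoters of respiratory genes are known to bind NRF1 and the ETS factor GABP (NRF2). RefSeq promoter windows on GRCm38.p6, each 250 bases before to 50 after a start, were found for 36 of the 47 genes, and both strands were searched. The NRF1 motif (GCGCA, any base, then GCGC) was in 10 of 36 genes (27.8%) against 5.19% of 27025 genes with a window, and the ETS motif CCGGAAG in 12 (33.3%) against 9.93%. The YY1 motif AAGATGGC was in 3 (8.33%) against 3.19%, and CCAAT in 21 (58.3%) against 41.1%. Of the 6 genes that fell and have a window, 2 held the NRF1 motif (Atp5k and Atp5g2), 1 the ETS motif (Atp5k), 1 the YY1 motif (Atp5j2) and 3 CCAAT. Of the 28 tested genes that did not pass, 8 held the NRF1 motif and 11 the ETS motif.

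The following sites show these motifs in genes that fell and in genes that did not, with the match in capitals and the strand of the gene, 5′ to 3′. Atp5k and Atp5g2 fell, and Atp5g3, Sdhd and Cox6b1 did not pass.
Atp5k, NRF1, chr5:108434430-108434459, minus strand: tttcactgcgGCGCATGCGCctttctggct
Atp5g2, NRF1, chr15:102671070-102671099, minus strand: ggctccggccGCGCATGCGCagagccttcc
Atp5g3, NRF1, chr2:73911295-73911324, minus strand: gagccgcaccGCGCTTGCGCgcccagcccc
Sdhd, NRF1, chr9:50603909-50603938, minus strand: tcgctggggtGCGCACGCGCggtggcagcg
Atp5k, ETS, chr5:108434370-108434398, minus strand: cctcagttgagCTTCCGGcgcgaaggtca
Cox6b1, ETS, chr7:30626125-30626153, minus strand: tcctctcgcagCTTCCGGccagtcggaat

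Atp5k and Atp5g2 carry the same 10 bases at the NRF1 match, and so do Cox6a1 and Uqcrc1, which did not pass. Cox7a1 and Cox7c, the complex IV genes with the largest falls, have none of the NRF1, ETS or YY1 letters in their windows. Their upstream stretches, free of annotated exons, are shown with CCAAT in either direction in capitals, which Cox7c lacks.
Cox7a1, chr7:30183994-30184143, plus strand: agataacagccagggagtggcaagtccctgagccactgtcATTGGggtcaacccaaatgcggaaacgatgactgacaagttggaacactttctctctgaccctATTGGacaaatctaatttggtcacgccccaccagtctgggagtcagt
Cox7c, chr13:86046905-86047045, minus strand: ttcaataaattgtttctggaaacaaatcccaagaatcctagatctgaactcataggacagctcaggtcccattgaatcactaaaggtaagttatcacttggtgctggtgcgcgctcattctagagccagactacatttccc
Such matches describe these letters and show neither binding nor its absence.

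Other genes linked to cytochrome oxidase and ATP synthase by protein or by symbol, outside the symbol pattern above, were examined as a separate list. Of 6 tested, 4 fell, 0 rose, and in 5 all Chat-pos libraries lay below all Chat-neg libraries, with a median difference of -0.88, where all genes gave 2.87% lower, 3.62% higher and 5.42% without overlap. The number that fell was 1 without Chat-neg replicate 2, 3 to 5 without any other single library, 1 without both Paneth-rich libraries and 2 with Chat-neg replicate 1 left out as well. Ndufa4, a subunit now placed in complex IV, was at 768, 1068, 1175 and 1303 CPM in Chat-neg and 435, 381, 429.5 and 560.5 CPM in Chat-pos. All Chat-pos values were below all Chat-neg values, and it fell by 1.27 ± 0.21 on the log2 scale (edgeR, Benjamini-Hochberg adjusted p = 0.000451). Atpif1, the inhibitor that blocks the ATP synthase from running backwards, was at 1361, 1962, 1928 and 2022 CPM in Chat-neg and 1104, 802, 797 and 1028 CPM in Chat-pos, also without overlap. It fell by 0.97 ± 0.21 on the log2 scale (edgeR, Benjamini-Hochberg adjusted p = 0.00491). The other 2 that fell were Cox7a2l, a supercomplex factor (-0.94 ± 0.22), and Usmg5, a small ATP synthase subunit (-0.81 ± 0.21).

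Assembly factors help to build the complexes without staying in them. Of 38 listed, 31 were tested, 2 fell and 0 rose, and the median difference was -0.21. That is 6.45% lower, where all genes gave 2.87%, and the number that fell was 2 or 3 without any single library and 1 without both Paneth-rich libraries. Cmc2, a cytochrome oxidase assembly factor, was at 81.4, 38.2, 37.1 and 44.9 CPM in Chat-neg and 16.2, 12.1, 21.7 and 14.7 CPM in Chat-pos and fell by 1.43 ± 0.32 on the log2 scale (edgeR, Benjamini-Hochberg adjusted p = 0.00598). Chat-neg replicate 1 gave the highest value, from 7 counts, and the groups did not overlap. Fmc1, an ATP synthase assembly factor, was at 93.1, 152, 145 and 189 CPM in Chat-neg and 105, 63.6, 52.5 and 66.9 CPM in Chat-pos, overlapping at replicate 1, and fell by 1.09 ± 0.23 on the log2 scale (edgeR, Benjamini-Hochberg adjusted p = 0.00365).

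Of 6 mitochondrially encoded partners listed, 3 were tested. Of these 3, 2 rose and 0 fell, where 3.62% of all genes were called higher and 2.87% lower. COX3, ATP6 and ATP8, with means of 5.30, 3.51 and 0.134 CPM over the 8 libraries, were too low to test. COX1, the catalytic core of complex IV, was at 7981, 9415, 11010.5 and 8379 CPM in Chat-neg and 15893, 27776, 27589 and 21741 CPM in Chat-pos. It rose by 1.34 ± 0.22 on the log2 scale (edgeR, Benjamini-Hochberg adjusted p = 0.00028), with no overlap. CYTB, the cytochrome b of complex III, rose by 0.85 ± 0.21 (edgeR, Benjamini-Hochberg adjusted p = 0.0106), also without overlap. The call of COX1 held in all 8 fits without 1 library and without both Paneth-rich libraries, while that of CYTB was lost without Chat-neg replicate 2, Chat-neg replicate 4, Chat-pos replicate 2 or both Paneth-rich libraries. COX2 rested on few counts, with a mean of 10.5 CPM over the 8 libraries, and did not pass (-0.14 ± 0.52). Whether the count table holds the reads of these mitochondrial genes in full was not tested.

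Within a library, counts of COX1 per count of all nuclear complex IV genes were 0.801, 0.672, 0.737 and 0.537 in Chat-neg against 1.40, 3.08, 3.21 and 1.81 in Chat-pos. Counts of CYTB per count of all nuclear complex III genes were 2.68, 2.36, 2.69 and 1.86 in Chat-neg against 4.55, 7.37, 7.62 and 4.77 in Chat-pos. Since COX1 and CYTB were named for their small p, these ratios are no separate support for their rise. Neither ratio overlapped between the groups. Both were highest in Chat-pos replicates 2 and 3, the Paneth-rich libraries, and both were above all Chat-neg libraries in Chat-pos replicates 1 and 4 as well, where Paneth markers were at 641 and 494 CPM.

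**Figure D5:**
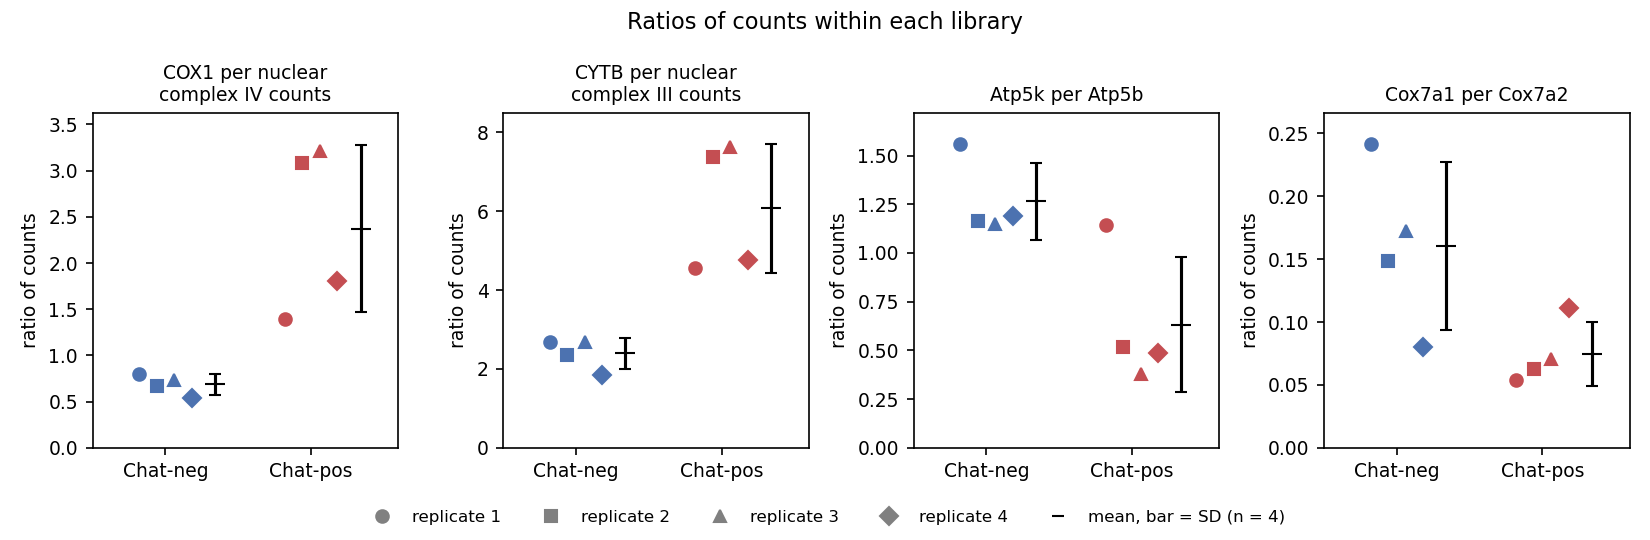
Ratios of counts within each library (y axes, each starting at 0) for COX1 per nuclear complex IV, CYTB per nuclear complex III, Atp5k per Atp5b and Cox7a1 per Cox7a2; marker shapes give the replicate number and black bars the mean and SD of 4 libraries. The groups separate in the first 3 panels and overlap in the Cox7a1 panel.

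Transcription factors and coactivators known to act on respiratory genes showed no change that passed. Of 13 listed, 9 were tested, with 0 lower and 0 higher by edgeR, also 0 at an unadjusted p under 0.05, and a median difference of 0.00. All genes gave 2.87% lower and 3.62% higher, and 9.88% and 10.9% at an unadjusted p under 0.05. In so short a list, with some genes at low counts, 0 calls cannot show that these genes were unchanged. Gabpb1, a partner of the ETS factor GABPA, was at 3.45 to 16.1 CPM over the 8 libraries and differed by 0.90 ± 0.53. Yy1, a zinc finger factor, differed by -0.39 ± 0.26. Of 25 mitochondrial membrane, import and matrix genes outside the chain, 1 fell (4.0%) and 1 rose, where all genes gave 2.87% lower and 3.62% higher. Without any single library, 0 or 1 fell and 0 or 1 rose. The median was -0.31, and 18 of the 25 differences were negative. Hspa9, the matrix chaperone that pulls in imported proteins, fell by 1.22 ± 0.27 on the log2 scale, and Vdac3, an outer membrane channel, rose by 0.81 ± 0.21. Cs, which encodes the citric acid cycle enzyme citrate synthase, was at 131 ± 24.1 CPM in Chat-neg and 131 ± 30.3 CPM in Chat-pos (SD, n = 4), a difference of -0.03 ± 0.21 (edgeR, Benjamini-Hochberg adjusted p = 0.966).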

How the data were processed

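RNA was measured in 8 bulk libraries of sorted tuft cells, with groups taken from the labelled cell population. Cells were lysed in SMARTer v4 reagents, libraries made with Nextera XT and single reads of 74 bases taken, per the labels' protocols. The authors deposited raw counts, with rows labelled by gene symbol. The build is GRCm38 per the submitters' processing notes, and the aligner and counter were not given in the sources used here. Replicates are separate samples by label only, so p-values measure the spread between libraries, which may in part be technical.

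Rows without a gene name, 36 in number, held 58.6% to 88.4% of counts per library and were left out. Rows sharing a symbol (229 rows, 114 symbols) were summed. The test was the robust quasi-likelihood fit of edgeR 4.0.16 (R 4.3.3) after TMM scaling and filterByExpr, with group as sole term and Benjamini-Hochberg adjustment over 8919 genes. CPM are counts per 1000000 of TMM-scaled totals of the genes tested. The background on receptor genes is the exception, given per 1000000 counts in all named genes without TMM scaling. The procedure was tested on simulated counts. Counting intervals cover counting error only, and strand is not marked by this kit.

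The genes, lists and rule for named genes were chosen with earlier results of these data known. The rule took every gene past the threshold, the 2 most abundant of each complex, the 3 with the highest differences, the gene copies and, from each list, the 2 with the smallest p. Other genes were named after their values were seen. The alternatives tried were scaling by RLE, by upper quartile and by total count, other filters, DESeq2 1.42.0, limma-voom (limma 3.58.1), a replicate block, removal of an exon length trend, thinning, and leaving libraries out. Thinning brought the libraries above 610756 counts down to that total. Chat-neg replicate 4, at 610756, and Chat-neg replicate 1, at 87642, were kept as they were. Gene positions came from GENCODE M21, and shared sequence was defined as an exact match of 74 bases between transcripts.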

Additional observations from a re-analysis of the deposited data

Results flagged for a closer look

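In groups of 4 libraries, 8 of 116 sets of values held a library far from the other 3, and chance gives about 1 in 20. In 6 of the 8 the library was Chat-neg replicate 1, which has the fewest counts. It was the lowest of its group for Uqcrc1 (139.6 CPM), Cox5a (256 CPM), Atp5b (710 CPM), Atp5k (1105 CPM) and Atp5o (675 CPM), and the highest for the ratio of Atp5k to Atp5b counts (1.56). Atp5k was nevertheless higher there than in any Chat-pos library. In Chat-pos replicate 4, Cox7a1 was far above its group, at 127 CPM against 52.4 to 60.3 CPM in the other 3. In Chat-pos replicate 2, one of the Paneth-rich libraries, the ratio of Atp5g1 to Atp5g3 counts was the highest of its group at 0.222.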

How the results depend on the processing

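No gene of the 47 was called higher under any alternative run. The main count of 9 lower genes became 15 with upper-quartile scaling and with DESeq2, and 16 with limma-voom. It was also 16 with the libraries above 610756 counts thinned to that total (Chat-neg replicate 1 kept its 87642). It was 19 with the length trend removed, 5 with a filter of 5 CPM in 4 libraries and 2 with no filter on low counts. Without the Paneth-rich libraries it was 0, and 3 when Chat-neg replicate 1 was left out as well, an alternative added after the data were seen. RLE scaling gave 8 and total count scaling 11. Leaving out 1 library gave 2 to 18. With the replicate block it was 4. Same-numbered libraries did not deviate together (correlations of 0.05, 0.03, -0.02 and -0.01), so the numbers were not taken to pair samples. Over all genes, the share called lower moved as well, from 2.87% in the main fit. It was 0.435% with no filter, 2.34% with 5 CPM in 4 libraries and 2.58% with the replicate block. It was 2.75%, 3.40% and 3.70% with RLE, upper-quartile and total count scaling, and 3.20% with the length trend removed. Thinning gave 3.87%, limma-voom 4.51% and DESeq2 4.24% of genes with an adjusted p. Total count scaling moved the median of all genes to -0.11 and no filter moved it to -0.34. Without the Paneth-rich libraries the log2 ratio of summed levels moved to -0.11 for complex IV and -0.26 for complex V, and turned to 0.026 for complex II. Signs turned among genes that did not pass, and the cause was not tested. With no filter, Cycs was at 0.063, Sdhb at 0.083, Cox6b1 at 0.070, Cox6a1 at 0.052 and Cox8a at 0.13. Without the Paneth-rich libraries, Cycs was at 0.15, Cox6b1 at 0.094, Cox6a1 at 0.12 and Cox8a at 0.20, and without Chat-neg replicate 1 too, Cycs was at 0.011, Cox8a at 0.056, Sdhc at -0.037 and Uqcrc2 at -0.032. With total count scaling Atp5f1, Sdhc and Uqcrc2 were at -0.015, -0.034 and -0.037, with limma-voom at -0.014, -0.0086 and -0.051, and with the length trend removed at -0.032, -0.042 and -0.071. Thinning gave -0.14 for Uqcrc2. Over the fits without 1 library, Sdhb ran from -0.36 to 0.035, Cox8a from -0.22 to 0.024, Atp5f1 from -0.14 to 0.23, Sdhc from -0.10 to 0.28, Uqcrc2 from -0.14 to 0.30 and Cycs from -0.29 to -0.060. In Chat-neg replicate 1 all 47 genes together had 2144 counts, which limits what it can show for single genes.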
